A study of Homo sapiens with 4 samples.

Results

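The 10 genes for secreted antimicrobial and acute-phase proteins described here were followed across 4 RNA-seq libraries of MCF10A cells: LTF, LCN2, CHI3L1, SFTPD, SAA1, SAA2, SLPI, PI3, C3 and CFB. All 10 were found among the 18840 gene entries of the deposited table, exact repeats left out. They were selected on earlier results from the same libraries, in which LTF, CHI3L1 and SFTPD were read almost only in the library labelled MYC and LCN2 was low there. Their differences are therefore given as a description, without a test. MCF10A is an immortalised, non-tumorigenic line of human breast epithelial cells. The 4 libraries came from cells that stably expressed the empty pBabe retroviral vector, pBabe-GFP (a green fluorescent protein), pBabe-miR-105 (a microRNA) or pBabe-MYC (a transcription factor). All 4 cultures received the same DMEM/F12 medium, supplemented with hydrocortisone (a glucocorticoid), EGF, insulin, cholera toxin and horse serum. The libraries were made from poly(A) RNA, and there was 1 library per construct. No replicate error exists, so every interval below covers counting error only and compares libraries rather than conditions. The vector and GFP libraries served as controls, and the distance between them is the only measure of scatter among cultures.

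These genes belong to the chemical defence that epithelia release onto their surfaces and into milk, mucus and plasma. LTF and LCN2 deprive microbes of iron, the first by binding ferric iron and the second by capturing bacterial siderophores. CHI3L1 and SFTPD bind carbohydrate, SAA1 and SAA2 are the inducible serum amyloid A proteins, SLPI and PI3 inhibit neutrophil serine proteases, and C3 and CFB drive the alternative pathway of complement. In epithelial cells many such genes are induced by interleukin-1, interleukin-6 and interleukin-17 through the NF-kB, C/EBP and STAT3 transcription factors.

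The libraries held between 6859698 reads (miR-105) and 14025115 reads (GFP) assigned to genes, so that 1 read was worth between 0.0722 and 0.157 CPM (read counts scaled to a common library size). All 10 basal and epithelial markers of the cell line were read in every library, but not at equal levels. In the library labelled MYC, 2 of them were at least 2-fold above both controls and 3 at least 2-fold below. Of all genes tested, 9.03% and 10.4% were. The miR-105 library likewise had 2 markers above and 3 below, beside 14.7% and 16.6%. CDKN2A and CDKN2B, at the chromosome 9 locus deleted in MCF10A, had 0 reads in all 4 libraries. ESR1, the oestrogen receptor, on the same list of genes low or lost in this line, was read at 6.49, 7.87, 13.2 and 0.474 CPM in the vector, GFP, miR-105 and MYC libraries. The level of the MYC transcript was 207 CPM in the vector, 198 in the GFP, 463 in the miR-105 and 232 in the MYC library. It was highest in the miR-105 library and near the controls in the library labelled MYC, so both libraries are named by their labels throughout, and miR-105 itself was not analysed here. The labels give no batch or date.

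In the library labelled MYC, 6 of the 10 genes were at least 2-fold higher than both controls (LTF, CHI3L1, SFTPD, SAA1, SAA2 and CFB), and 1, LCN2, was at least 2-fold lower. Fold thresholds were applied to log2(CPM + 0.5). Over the 12484 genes whose mean level reached 1 CPM, 9.03% were called higher and 10.4% lower by the same rule. The members were selected on this contrast, so nothing is read from the counts. In the miR-105 library, 3 genes were called lower (LCN2, SAA2 and C3), where the background was 16.6%, and 0 were called higher, where it was 14.7%. That count rests on both controls: against the vector alone 5 genes were lower (SAA1 and SLPI in addition) and 0 higher, beside 19.7% and 19.2% of all genes. Against the GFP library alone 3 were lower and 1, PI3, was higher, beside 21% and 17.8%. All 10 genes passed the expression filter, but LTF, CHI3L1 and SFTPD passed only through the library labelled MYC, where alone they were read at more than 4 reads. The median log2 difference of the 10 genes from the controls was 4.14 in the library labelled MYC, beside 0.04 over all genes tested, and -0.73 in the miR-105 library, beside 0.01.

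**Figure D1:**
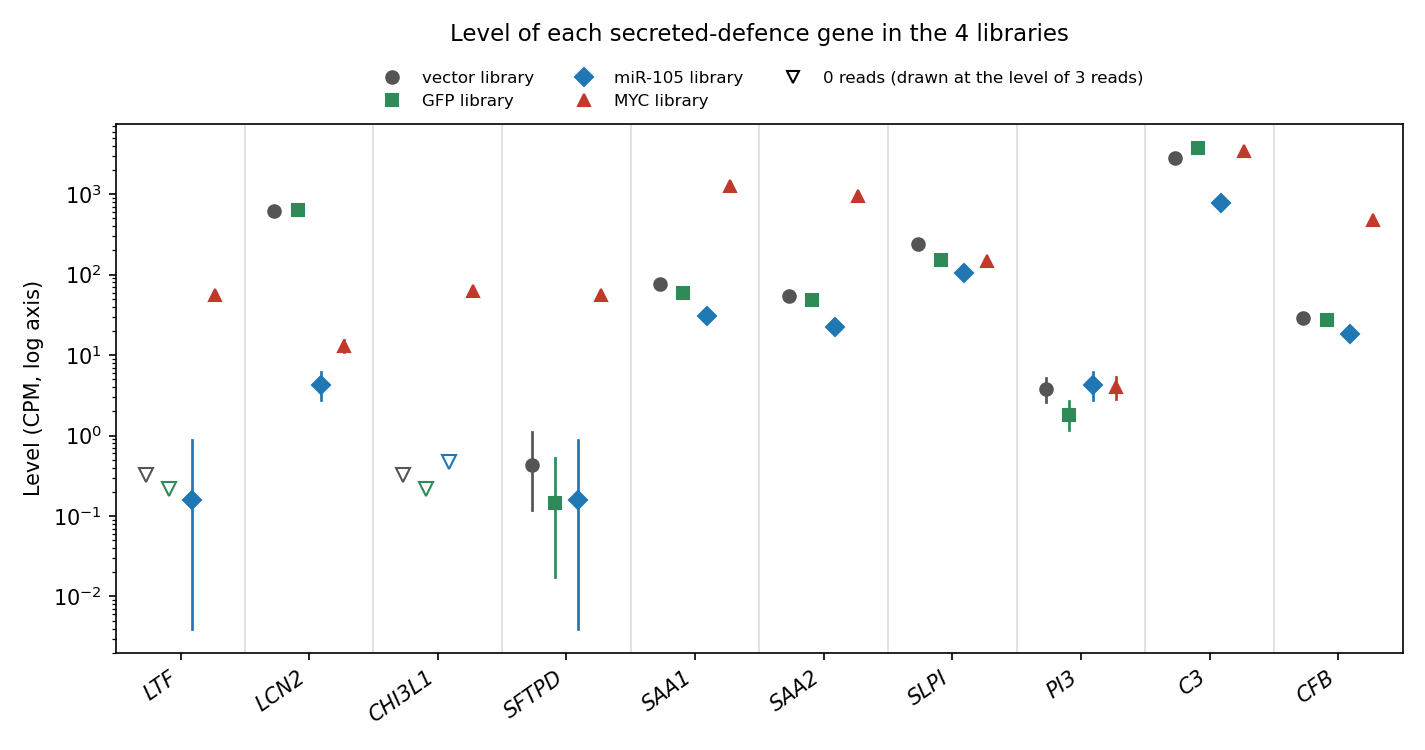
Level of each of the 10 genes in the vector, GFP, miR-105 and MYC libraries, in CPM on a log axis. Points are single libraries, bars are exact 95% Poisson intervals of the read count, and open triangles mark 0 reads, drawn at the level of 3 reads. LTF, CHI3L1 and SFTPD stand between 55.7 and 63.1 CPM in the library labelled MYC and at or below 0.432 CPM in the others, while LCN2 stands at 614 and 629 CPM in the controls and at 13.0 CPM or below in the other libraries.

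LTF and LCN2, the pair of iron-withholding proteins, had opposite orders in the controls and the library labelled MYC. LTF encodes lactoferrin, an iron-binding protein of milk and neutrophil granules, and lies at chr3:46435645-46485234 on the minus strand (GENCODE 29, GRCh38). It had 0 reads in the vector, 0 in the GFP, 1 in the miR-105 and 597 in the MYC library. The last count equals 56.6 CPM (52.1 to 61.3), at least 175-fold above the vector and at least 261-fold above the GFP library when a count of 0 is set to 3 reads per library. The count of 0 leaves room for up to 0.324 CPM in the vector and 0.217 CPM in the GFP library. LTF was thus read in quantity in 1 of 4 libraries, where it was the 4106th gene by CPM.

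LCN2 encodes lipocalin 2, which binds siderophores and is stored with lactoferrin in neutrophil granules. The gene lies at chr9:128149071-128153455 on the plus strand. It had 5682 reads in the vector, 8701 in the GFP, 27 in the miR-105 and 137 in the MYC library, or 614, 629, 4.23 and 13.0 CPM. Both controls were high and agreed to 1.02-fold, and both other libraries were low. LCN2 was 47.3-fold lower (39.9 to 56.4) than in the vector and 48.4-fold lower (40.9 to 57.7) than in the GFP library in the library labelled MYC. The miR-105 library was 145-fold lower (99.6 to 220.3) than in the vector and 148-fold lower (102 to 225) than in the GFP library. Between the low libraries, LCN2 was 3.07-fold higher (2.02 to 4.82) in the one labelled MYC. In rank by CPM the gene moved from 196th in the vector and 165th in the GFP library to 8968th and 10316th. In bulk RNA, fewer cells that express a gene and less of its RNA per cell cannot be told apart, and this holds for every gene here.

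Sequences before a RefSeq transcript start are shown for LCN2, SFTPD and CHI3L1, because they were read side by side for motifs of the acute-phase regulators. The LCN2 and SFTPD stretches lie inside the annotated spans of these genes. They come from the RefSeq promoter table (GRCh38.p14), which matched 5 of the 10 genes. SAA1, SAA2, SLPI, PI3 and C3 had no entry. Each searched window held the 250 bases before the transcript start nearest to that of the longest principal GENCODE transcript, and bases annotated as untranslated region are not printed. Capitals mark matches on either strand to the NF-kB motif or to C/EBP (TTNNGCAA), STAT (TTCNNNGAA) or AP-1 (TGANTCA). The stretches are LCN2 at chr9:128149265-128149452 (plus strand), SFTPD at chr10:79949106-79949355 (minus strand) and CHI3L1 at chr1:203186750-203186954 (minus strand), with the first and the second ending at the start and CHI3L1 ending 45 bases before it.
LCN2: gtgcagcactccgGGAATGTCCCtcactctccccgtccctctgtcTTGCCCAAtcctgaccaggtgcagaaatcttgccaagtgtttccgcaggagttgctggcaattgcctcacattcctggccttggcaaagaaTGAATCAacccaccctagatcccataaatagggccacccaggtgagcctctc
SFTPD: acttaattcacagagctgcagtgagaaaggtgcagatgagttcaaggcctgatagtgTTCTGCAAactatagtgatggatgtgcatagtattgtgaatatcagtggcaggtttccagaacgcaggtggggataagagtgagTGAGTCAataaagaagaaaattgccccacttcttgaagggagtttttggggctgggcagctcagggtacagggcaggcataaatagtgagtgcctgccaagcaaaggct
CHI3L1: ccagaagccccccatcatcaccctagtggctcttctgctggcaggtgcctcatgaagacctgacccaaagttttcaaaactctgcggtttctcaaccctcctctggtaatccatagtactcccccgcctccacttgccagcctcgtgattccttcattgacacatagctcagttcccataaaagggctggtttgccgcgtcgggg
The LCN2 window held 1 match each to NF-kB (GGAATGTCCC on the printed strand), C/EBP (TTGCCCAA) and AP-1 (TGAATCA), which began 175, 143 and 52 bases before the start and did not overlap. SFTPD had a C/EBP match 193 bases and an AP-1 match 109 bases before its start. LTF had a C/EBP match (TTGGGCAA) at 59 bases, CFB a STAT match (TTCCGGGAA) at 92 bases, and CHI3L1 none. The LTF and CFB windows lay wholly in annotated untranslated region and are not printed. Their RefSeq starts were 258 and 386 bases from the principal GENCODE starts, and that of LCN2 was 382 bases away. Of 34941 RefSeq windows of this length, 5.2% held the NF-kB, 9.06% the C/EBP, 6.56% the STAT and 6.59% the AP-1 motif, and 24.4% held at least 1 of them. A match describes letters and shows no binding.

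CHI3L1 and SFTPD, both carbohydrate-binding proteins, had 4 reads or fewer in 3 libraries and 588 or more in the library labelled MYC. CHI3L1 encodes a chitinase-like glycoprotein (YKL-40) without enzymatic activity, at chr1:203178931-203186749 on the minus strand. It had 0 reads in the vector, GFP and miR-105 libraries and 666 in the library labelled MYC, or 63.1 CPM (58.4 to 68.1). With a count of 0 again set to 3 reads, this is 195-fold above the vector and 291-fold above the GFP library. Against the miR-105 library it is 134-fold. No library other than the one labelled MYC gave a CHI3L1 read.

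SFTPD encodes surfactant protein D, a collectin that coats microbes in the lung and at other mucosal surfaces, at chr10:79937740-79982614 on the minus strand. It had 4 reads in the vector, 2 in the GFP, 1 in the miR-105 and 588 in the MYC library, where its level was 55.7 CPM (51.3 to 60.4). The ratio was 129 (50.1 to 475) to the vector and 386 (106 to 3194) to the GFP library, wide intervals set by the few control reads. The vector library held 2870 genes at 1 to 3 reads, against 1655, 1447 and 1611 in the GFP, miR-105 and MYC libraries. Whether this bears on its few SFTPD reads was not tested. Of the 15 listed chitinase-like proteins and collectins, 3 passed the expression filter, and the remaining one, CHI3L2, was at 8.54, 9.75, 9.10 and 28.7 CPM in the vector, GFP, miR-105 and MYC libraries. CHI3L2 was 3.36-fold and 2.95-fold above the controls in the last, and unlike CHI3L1 it was read in all 4.

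SAA1 and SAA2, whose proteins travel on high-density lipoprotein in plasma and are the classical markers of an acute-phase response, were the members with the highest levels per length in the library labelled MYC. SAA1 lies at chr11:18266174-18269977 on the plus strand. It had 707 reads (76.4 CPM) in the vector, 828 (59.8 CPM) in the GFP, 193 (30.3 CPM) in the miR-105 and 13353 (1266 CPM) in the MYC library. SAA2 lies 17530 bases away at chr11:18239223-18248643 on the minus strand. Its reads were 502, 666, 142 and 10155 in the same order, or 54.3, 48.1, 22.3 and 963 CPM. Both genes were low in the miR-105 library, intermediate in the controls and high in the library labelled MYC. There SAA1 was 16.6-fold (15.4 to 17.9) and 21.2-fold (19.7 to 22.7) above the vector and GFP libraries, and SAA2 was 17.7-fold (16.2 to 19.4) and 20.01-fold (18.5 to 21.7) above them. By CPM, SAA1 moved from 3006th and 4090th in the controls to 50th of all genes.

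The coding sequences of SAA1 and SAA2 are 97% identical, with 11 differences over 369 bases and an identical run of 186 bases, so reads may be placed on either gene. Coding bases 174 to 323 of each, from GENCODE 29, hold 10 of the differences, marked by capitals.
SAA1: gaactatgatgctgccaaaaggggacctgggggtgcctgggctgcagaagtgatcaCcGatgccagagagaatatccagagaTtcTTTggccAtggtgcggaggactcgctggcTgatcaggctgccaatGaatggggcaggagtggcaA
SAA2: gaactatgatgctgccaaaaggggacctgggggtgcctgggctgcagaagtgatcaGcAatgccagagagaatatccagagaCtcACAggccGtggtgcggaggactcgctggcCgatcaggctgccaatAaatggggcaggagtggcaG
The ratio of SAA1 to SAA2 reads stayed between 1.24 and 1.41 in the 4 libraries, and how far shared reads set that ratio was not tested. The table also lists SAA2-SAA4, a read-through gene that overlaps SAA2 and was chosen after its values were seen. It was at 35.4, 30.2, 14.3 and 541 CPM in the vector, GFP, miR-105 and MYC libraries. SAA1, SAA2, SAA4 and the read-through were also summed into 1 locus. A read placed on another of these symbols leaves that sum unchanged, provided that each read was counted once. Reads credited to both SAA2 and the read-through would enter the sum and its interval more than once, which was not tested. The locus was 16.8-fold (15.9 to 17.7) and 20.1-fold (19.2 to 21.02) above the controls in the library labelled MYC. The miR-105 library had 2.50-fold (2.24 to 2.78) and 2.09-fold (1.88 to 2.32) lower levels than the controls.

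SLPI and PI3, the inhibitors of neutrophil elastase with a whey acidic protein (WAP) domain, were not called in either comparison. SLPI, a secreted leukocyte protease inhibitor, lies at chr20:45252239-45254564 on the minus strand. It was at 241 CPM in the vector, 154 in the GFP, 106 in the miR-105 and 148 in the MYC library. The vector library stood highest, and the 1.56-fold gap (1.47 to 1.66) between the controls was about as wide as their distance from the library labelled MYC, which was 1.63-fold and 1.043-fold below them. SLPI in the miR-105 library was 2.28-fold (2.09 to 2.49) below the vector and 1.46-fold (1.34 to 1.59) below the GFP library. PI3, which encodes elafin, lies 75694 bases from SLPI at chr20:45174876-45176544 on the plus strand. It was rare, with 35, 25, 27 and 42 reads or 3.78, 1.81, 4.23 and 3.98 CPM in the vector, GFP, miR-105 and MYC libraries. The GFP library was lowest, 2.10-fold (1.22 to 3.65) below the vector, a gap larger than that of any other member read more than 4 times in the controls. On the log2(CPM + 0.5) scale this gap was -0.89, below the threshold of 1 in size.

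C3 and CFB, partners in the alternative pathway convertase, did not move together. C3 encodes the central complement component, at chr19:6677704-6730562 on the minus strand. It was at 2826 CPM in the vector, 3738 in the GFP, 774 in the miR-105 and 3479 in the MYC library, the largest read count of the 10 genes in each. The library labelled MYC lay between the controls. The miR-105 library was 3.65-fold (3.54 to 3.77) below the vector and 4.83-fold (4.69 to 4.98) below the GFP library, against 1.32-fold between the controls. CFB encodes complement factor B, the protease of that convertase, at chr6:31945650-31952084 on the plus strand. It was at 29.1, 27.1, 18.5 and 478 CPM in the vector, GFP, miR-105 and MYC libraries. Only the last stood apart by more than 2-fold, at 16.4-fold (14.5 to 18.7) and 17.7-fold (15.9 to 19.7) above the controls. The ratio of C3 to CFB in CPM was accordingly 97.2 and 138 in the controls, 41.8 in the miR-105 library and 7.28 in the library labelled MYC. The upstream neighbour C2 overlaps CFB by 23 bases on the annotation. C2 was lower, not higher, in the library labelled MYC (5.51, 5.27, 0.157 and 1.33 CPM in the same order).

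**Figure D2:**
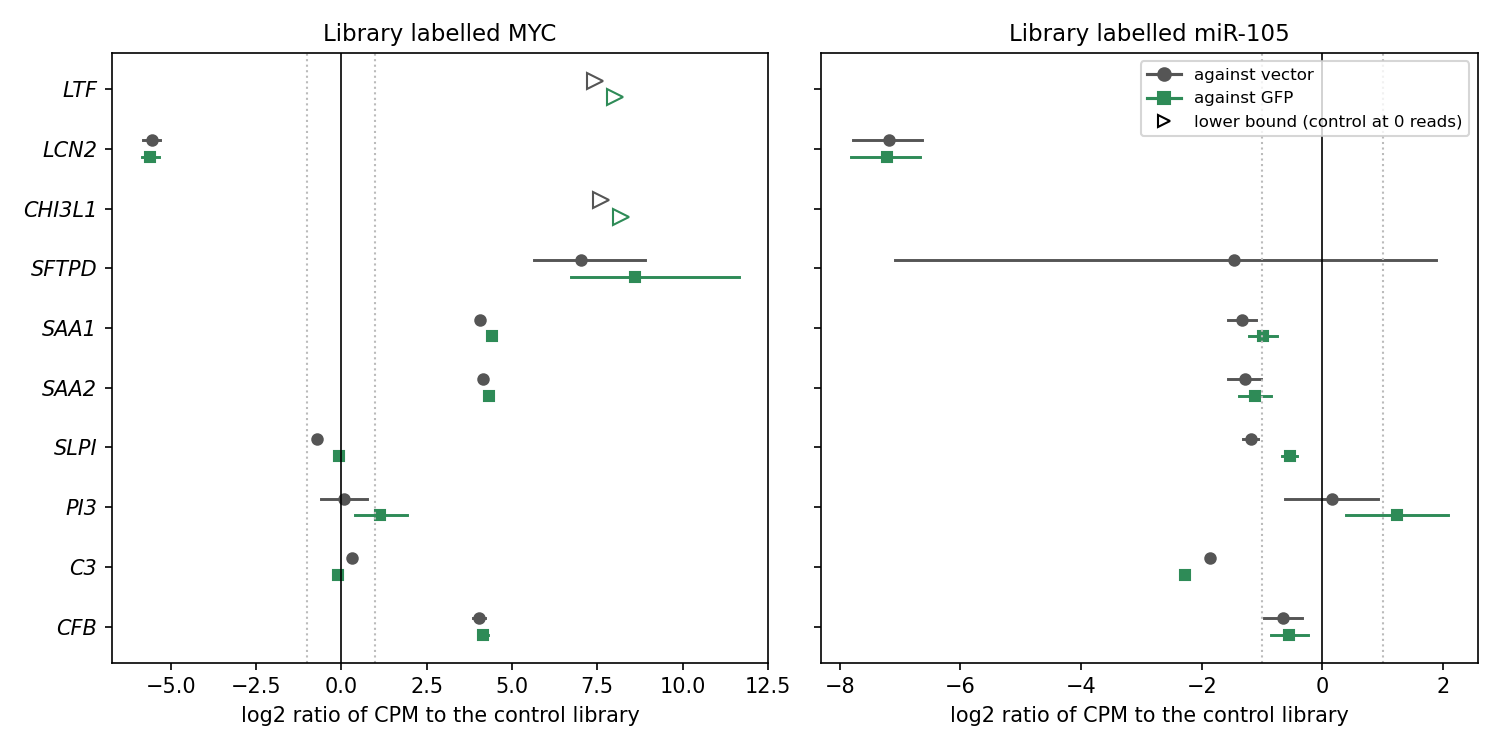
Log2 ratio of CPM in the library labelled MYC (left) and the miR-105 library (right) to the vector (circles) and GFP (squares) libraries for each gene, with exact 95% intervals of counting error; dotted lines mark 2-fold. Triangles are lower bounds, and LTF, CHI3L1 and the SFTPD ratio to GFP are not drawn on the right because those libraries held 3 reads or fewer; LCN2 is the only gene far left on both sides.

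The miR-105 library and the library labelled MYC were also compared directly. The members were selected on the values of the latter, and LTF, CHI3L1 and SFTPD passed the filter only through it, so nothing is read from this count either. The library labelled MYC was higher by at least 2-fold for 8 of the 10 genes, where the background was 19.8% of all genes tested, and lower for 0, where it was 19%. SAA1 was 41.8-fold (36.3 to 48.5), SAA2 43.2-fold (36.6 to 51.4), CFB 25.8-fold (21.5 to 31.3) and C3 4.50-fold (4.37 to 4.63) higher. LTF and SFTPD, at 1 read each in the miR-105 library, had ratios of 361 (64.5 to 14277) and 355 (63.5 to 14062). SLPI, at 1.398-fold higher, and PI3, at 1.06-fold lower, were not called. Between the GFP and vector libraries 0 of the 10 genes were called, where 3.06% of genes were called higher and 1.03% lower.

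Compared per kilobase of transcript, the leading gene differed by library. LCN2 led in the vector library at 724 CPM per kb, ahead of C3 at 537 and SLPI at 405, and in the GFP library at 741, close to C3 at 710. In the miR-105 library SLPI led at 178 CPM per kb, followed by C3 at 147, and LCN2 had dropped to 4.99. In the library labelled MYC, SAA1 led at 1875 CPM per kb, SAA2 followed at 1401, C3 at 661 and SLPI at 248, while LCN2 stood at 15.3. PI3 was at 6.56 and 6.90 CPM per kb in the vector and MYC libraries. Among genes read in the library labelled MYC, SFTPD at 43.5, CHI3L1 at 35.2 and LTF at 19.0 CPM per kb were below CFB at 167.

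The 10 genes together took 0.389% of all assigned reads in the vector, 0.460% in the GFP, 0.0892% in the miR-105 and 0.703% in the MYC library. C3 supplied 73.5%, 80.3%, 80.6% and 53.3% of those reads in the same order. LCN2 supplied 16.0% and 13.5% in the controls but 0.441% and 0.199% in the other libraries. The miR-105 library therefore kept the high share of C3 within a smaller total, whereas the library labelled MYC had a larger total and a different make-up.

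**Figure D3:**
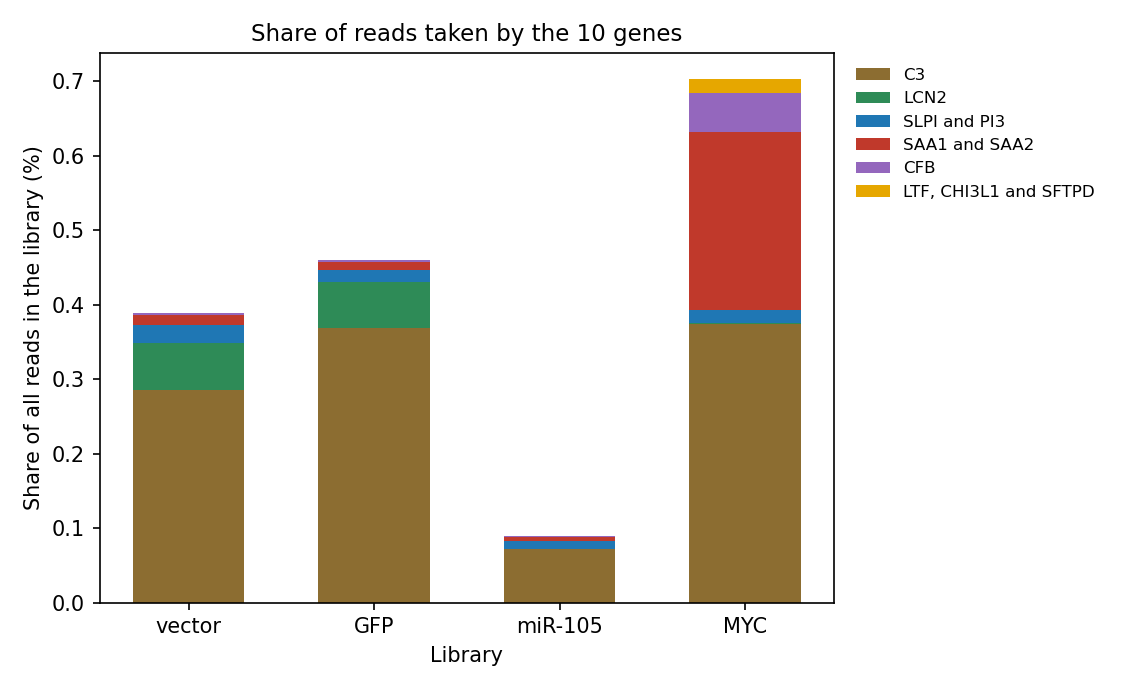
Share of all assigned reads, in percent, taken by the 10 genes in the 4 libraries, as stacked bars that start at 0. C3, LCN2 and CFB are drawn singly. SLPI with PI3, SAA1 with SAA2, and LTF with CHI3L1 and SFTPD are drawn as joint parts. The whole bar falls to 0.0892% in the miR-105 library and reaches 0.703% in the library labelled MYC, where SAA1, SAA2 and CFB fill most of what C3 does not.

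Other acute-phase proteins were also compared, from a list of 30 of which 17 passed the filter. Apart from the members on it, 12 passed, 2 of them only through the library labelled MYC. Of these 12, 7 were called higher and 2 lower in that library, beside 9.03% and 10.4% of all genes tested. In the miR-105 library 2 were higher and 6 lower, beside 14.7% and 16.6%. The lists here and below were chosen with earlier results known, so their counts are given as a description. SERPINA3, an inhibitor of cathepsin G, was at 9.62, 11.1, 31.8 and 2458 CPM in the vector, GFP, miR-105 and MYC libraries. SERPINA1, which inhibits neutrophil elastase as SLPI and PI3 do, had 1, 1, 5 and 497 reads. SAA4, the constitutive serum amyloid A, had 6, 17, 0 and 274 reads. SERPINA3, SERPINA1 and SAA4 were thus high in the library where SAA1 and SAA2 were. SERPING1, the C1 inhibitor and also a serpin, was low there, at 14.2 and 8.74 CPM in the controls but 0.471 in the miR-105 and 0.379 in the MYC library. ITIH4 had 18 and 55 reads in the controls and 1 read in the miR-105 library.

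Among 33 listed complement genes, 18 passed, and 16 of these were not members, 2 of them passing only through the library labelled MYC. In that library 7 of the 16 were called higher and 2 lower, beside 9.03% and 10.4% of all genes tested. In the miR-105 library 0 were higher and 7 lower, beside 14.7% and 16.6%. C1R, the classical-pathway protease, was at 5.73, 2.67, 2.51 and 279 CPM in the vector, GFP, miR-105 and MYC libraries. C1S, its substrate, was at 1.51, 0.433, 0.627 and 114 CPM. C1R and C1S thus stood high only in the library where CFB did, with ratios of 48.7 and 75.5 to the vector. In the miR-105 library C2 had 1 read against 51 and 73 in the controls, and C5AR1, the receptor for C5a, had 0 reads against 30 and 30. C1RL, a protease related to C1R, was at 44.1, 61.8, 8.78 and 117 CPM. C4B was at 16.6, 15.9, 2.35 and 85.5 CPM and C4A at 8.43, 8.02, 1.25 and 42.5 CPM; they are near-identical copies whose reads the counting may have split. Across the list the miR-105 side thus contained C3, C4B and C2, while CFB did not pass its threshold there.

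**Figure D4:**
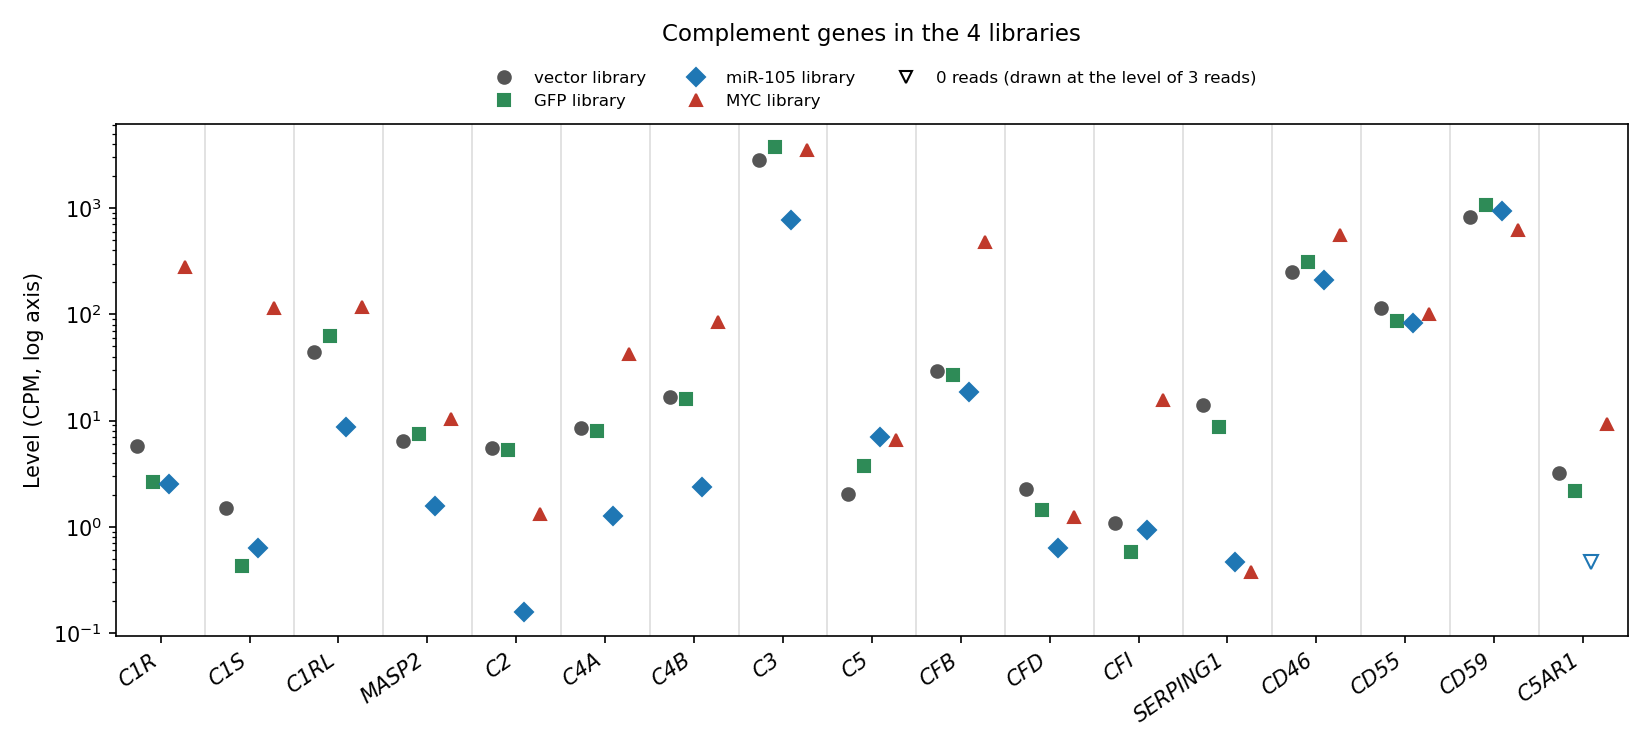
Level of complement genes in the 4 libraries, in CPM on a log axis; points are single libraries and open triangles mark 0 reads, drawn at the level of 3 reads. C1R, C1S and CFB stand highest in the library labelled MYC, and C3 stands lowest in the miR-105 library at 774 CPM.

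Of 30 listed antimicrobial proteins and peptides, 11 passed the filter, 7 of them not members. In the library labelled MYC, 2 of the 7 were higher and 2 lower, beside 9.03% and 10.4% of all genes tested. In the miR-105 library 0 were higher and 2 lower, beside 14.7% and 16.6%. S100A8 and S100A9, which form the zinc- and manganese-binding calprotectin, were the higher pair. S100A8 was at 1.62, 0.795, 3.14 and 27.7 CPM and S100A9 at 12.6, 10.8, 21.6 and 74.6 CPM in the vector, GFP, miR-105 and MYC libraries. DEFB1, an epithelial defensin, had 105 and 165 reads in the controls, 33 in the miR-105 and 2 in the MYC library. MUC1, a membrane mucin, was at 1785, 1643, 257 and 742 CPM, lower in both other libraries as LCN2 was. Antimicrobial genes therefore stood on both sides in the library labelled MYC.

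The list of WAP inhibitors and the proteases and transglutaminases they act with held 6 genes besides SLPI and PI3 that passed. In both the library labelled MYC and the miR-105 library, 5 of the 6 were called lower and 0 higher. Of all genes tested, 10.4% and 16.6% were lower and 9.03% and 14.7% higher in these libraries. KLK5, a kallikrein of the cornified layer, was at 373 CPM in the vector, 447 in the GFP, 75.6 in the miR-105 and 0.190 in the MYC library. KLK7 was at 42.2, 57.1, 12.7 and 1.52 CPM. TGM1 and TGM2, enzymes that cross-link proteins such as elafin, were at 33.8 and 3.51 CPM in the library labelled MYC against 140 and 105 CPM in the vector library. TMPRSS2 had 18, 27, 0 and 2 reads. SLPI and PI3 themselves did not pass the threshold in either library.

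Regulators known to act on these genes were compared through a list of 23, of which 22 passed. In the library labelled MYC 8 were higher and 1 lower, beside 9.03% and 10.4% of all genes tested. In the miR-105 library 0 were higher and 10 lower, beside 14.7% and 16.6%. The medians were 0.79 (MYC) and -0.72 (miR-105), beside 0.04 and 0.01 over all genes. NFKBIA, the NF-kB inhibitor that NF-kB itself induces, was at 178, 137, 44.7 and 514 CPM in the vector, GFP, miR-105 and MYC libraries. TNFAIP3, another NF-kB target, was at 21.1, 24.1, 6.90 and 236 CPM, and RELB at 33.1, 23.8, 8.94 and 86.6 CPM. Like SAA1 and SAA2, NFKBIA, TNFAIP3 and RELB were lowest in the miR-105 library and highest in the library labelled MYC, while the order of the controls differed among them. CEBPA was at 2.05, 2.38, 2.04 and 10.9 CPM. GRHL2, an epithelial transcription factor, had 1047 and 2152 reads in the controls, 645 in the miR-105 and 0 in the MYC library. In the miR-105 library ELF3, an epithelial ETS factor, was at 46.3 CPM against 561 and 510, CEBPD at 23.5 against 173 and 124, NFKB2 at 44.2 against 279 and 225, and EHF at 62.6 against 192 and 301.

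Markers of other cells that make these proteins were read beside them. Neutrophils store LTF and LCN2. Of 11 neutrophil granule markers 8 had 0 reads in the library labelled MYC, among them MPO, ELANE and MMP8. The list summed to 4.11, 1.73, 0.784 and 3.13 CPM in the vector, GFP, miR-105 and MYC libraries, of which CSF3R made up 3.35, 1.44, 0.157 and 2.84 CPM. PTPRC, the pan-leukocyte marker, had 0, 1, 0 and 0 reads. The 8 macrophage and leukocyte markers summed to 95.9, 99.3, 43.0 and 27.8 CPM, mostly CSF1R, CD68 and CD14. These were at 66.3, 19.5 and 9.41 CPM in the vector library and at 9.86, 8.34 and 9.39 CPM in the library labelled MYC. Of 7 alveolar type II markers, which mark the main lung source of SFTPD, SFTPA1, SFTPA2 and SFTPC had 0 reads in the library labelled MYC. SFTPB had 5, 0, 0 and 51 reads in the vector, GFP, miR-105 and MYC libraries and passed the filter only through the last. Of the 3 markers that passed, it was the 1 called higher there and 0 were lower. Of all genes tested, 9.03% were called higher and 10.4% lower in that library. The part of SFTPB in the SFTPD result was not tested. The 7 markers summed to 21.4, 28.0, 1.73 and 33.8 CPM, of which ABCA3 made up 17.8, 25.8, 1.57 and 26.7 CPM. Hepatocytes make most circulating acute-phase proteins, and their 7 markers summed to at most 0.569 CPM in any library. The 6 milk markers in the table had 0 reads apart from 1 read of ELF5 in the library labelled MYC. The 8 fibroblast markers summed to 216, 211, 118 and 161 CPM. COL3A1 had 0 reads in all 4 libraries, whereas 3 of the 8 passed the expression filter.

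By the Euclidean distance between centred log2(CPM + 0.5) profiles over the 4 libraries, the genes nearest to LTF among 12484 were SLC12A7 (0.32), CHI3L1 (0.41) and SNURF (0.42). Nearest to CHI3L1 were SLC12A7 (0.22), PDPN (0.23) and LTF (0.41). Nearest to SFTPD were SNRPN (0.04), OLFM4 (0.22) and CCND2 (0.35), where SNURF and SNRPN are overlapping genes with 437 reads each in the library labelled MYC. LCN2 had more distant neighbours, GABRP (0.94), ALPPL2 (1.23) and ALPP (1.27), the last pair being near-identical paralogs whose reads may be split. GABRP, a GABA receptor subunit, was at 47.1, 86.0, 0.314 and 1.80 CPM in the vector, GFP, miR-105 and MYC libraries. All distances share the same 4 libraries and describe these only.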

How the data were processed

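Poly(A) RNA-seq of 4 MCF10A lines was analysed, with 1 library per construct. Per the submitters' processing notes, TopHat2, edgeR and the hg19 build were used, without versions. How reads were counted, on which annotation and with which strand setting is not given in the sources used here, and reads of overlapping genes cannot be told apart. The deposited signal is a per-gene value adjusted by the authors to a common library size. It has the form of edgeR pseudo-counts, with the vector and GFP libraries as 1 group at a dispersion of 0.0552851. Inverting that map gave whole reads for 100% of values within a tolerance of 0.0001. From 18859 lines, 19 exact repeats were dropped, which left 18840 gene entries. For 1 symbol the lines differed, and these were kept as separate entries.

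CPM were computed from these reads with TMM factors (edgeR 4.0.16 in R 4.3.3). Genes whose mean reached 1 CPM were kept, log2(CPM + 0.5) was used, and a gene was called when at least 2-fold from both controls. Ratio intervals are exact conditional binomial (Clopper-Pearson) and level intervals exact Poisson, at 95%. For ratios a count of 0 was set to 3 reads, which is a convention and not a 95% limit. PCR reads are not independent molecules. The inversion and the count tests were tested on simulated data. Alternatives were other scalings, pseudocounts, filters and thresholds, leaving out a control, edgeR's quasi-likelihood test and DESeq2 1.42.0. Counting the SAA locus once was chosen after seeing the data. Coordinates are GENCODE 29 (GRCh38), matched by symbol to the hg19-based table, so they place genes but not reads. The 10 members were named throughout. Of each list, the genes called in the library labelled MYC or miR-105 were named, at most 5 per library by size of the log2 difference, and 3 nearest profiles were named for LTF, CHI3L1, SFTPD and LCN2; 1 complement gene that the rule names is counted with its list but not reported here. Members and lists were chosen with earlier results of these data known. Analyses used Python 3.11.15, numpy 2.4.6, pandas 2.3.3, scipy 1.17.1 and matplotlib 3.10.9.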

Additional observations from a re-analysis of the deposited data

How the results depend on the processing

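The count of 7 genes called in the library labelled MYC was 7 under each planned setting and 6 with the SAA locus counted once; the genes were selected on this contrast, so nothing is read from it. edgeR's quasi-likelihood test and DESeq2, with both controls as 1 group, have 1 residual degree of freedom and 1 library in the other arm. Their calls support nothing for genes selected with these values known, and their counts are not read. No direction of a called gene reversed. The miR-105 count of 3 became 1 at a 4-fold threshold (LCN2), and ranged from 4 to 5 when the vector or the GFP library was left out. At a pseudocount of 0.1 CPM, 2 genes (SFTPD and PI3) were called lower in the GFP library against the vector. Of all 12484 genes tested, 264 were lower by that rule. The miR-105 count became 4 at that pseudocount, 3 lower and 1 higher, the latter being LTF on 1 read. Over all genes, 2258 were lower and 1890 higher there. With library totals alone the miR-105 count was also 4, each lower, beside 2278 of 12489 genes. With a filter of 5 CPM, which removes PI3, the median of the members became 5.36 in the comparison of the MYC and miR-105 libraries and -0.86 in the miR-105 library. Of the single-gene differences under the alternatives, 291 moved by less than counting error and 25 by more. The 291 include the filter settings, which cannot change the difference of a single gene. They also include genes at 0 control reads, where counting error is wide. At a pseudocount of 0.1 CPM, CHI3L1 in the library labelled MYC moved from 6.99 to 9.30 and LTF from 6.84 to 9.15. Nothing is therefore read from this tally. Library totals alone moved the median of all genes from 0.04 to 0.14 (MYC), 0.01 to -0.09 (miR-105) and -0.05 to 0.15 (MYC against miR-105); the last split became 3004 higher and 1837 lower in place of 2478 and 2371. Between the controls, the split of 382 higher and 128 lower genes became 306 and 168 with DESeq2 size factors and 310 and 192 on the deposited values. LCN2 in the GFP library against the vector changed sign with scaling, and C3 in the library labelled MYC did so when the vector was left out; neither was called. At 4-fold the called genes numbered 890 (MYC), 1351 (miR-105), 21 (GFP against vector) and 1871 (MYC against miR-105), in place of 2426, 3904, 510 and 4849; without the filter, 801 were called between the controls. No paired analysis was possible because each group has 1 library, and leaving out the MYC or the miR-105 library loses each comparison that uses it. Depth limits LTF, CHI3L1 and SFTPD in the 3 libraries where they had 4 reads or fewer, and PI3 throughout.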

Other observations

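Genes of iron and siderophore handling, the process in which LTF and LCN2 act, were also read. Of 20 listed, 14 passed the filter, 12 of them not members. In the library labelled MYC 4 of the 12 were called higher and 1 lower, beside 9.03% and 10.4% of all genes tested. In the miR-105 library 0 were higher and 5 lower, beside 14.7% and 16.6%. STEAP3, a ferrireductase, was at 96.2, 104, 152 and 399 CPM in the vector, GFP, miR-105 and MYC libraries. LRP1, an endocytic receptor that binds lactoferrin among many ligands, was at 55.9, 76.2, 10.4 and 239 CPM. LRP1 was thus lowest in the miR-105 library and highest in the library labelled MYC. STEAP4, another metalloreductase, was at 4.97, 12.2, 0.784 and 1.33 CPM. BDH2 was at 4.71 CPM in the miR-105 library against 17.5 and 15.5 in the controls. FTH1, the ferritin heavy chain, was at 1313 CPM there against 4931 and 3650.

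Cytokines and receptors upstream of the acute-phase genes were split. Of 24 in the table, 17 passed. In the library labelled MYC 4 of them were higher and 5 lower, beside 9.03% and 10.4% of all genes tested. In the miR-105 library 0 were higher and 5 lower, beside 14.7% and 16.6%. IL1A, an epithelial alarm cytokine, had 16, 10, 9 and 186 reads in the vector, GFP, miR-105 and MYC libraries, while IL1RN, its natural antagonist, had 100, 121, 53 and 9. LIFR, a receptor of the interleukin-6 family, was at 11.4, 19.5, 11.6 and 113 CPM. TLR2 was at 87.0, 82.1, 25.9 and 1.61 CPM and TLR4 at 14.1, 28.97, 5.33 and 1.23 CPM, so both receptors for bacterial products were lowest in the library labelled MYC. In the miR-105 library IL17RE was at 12.5 CPM against 96.6 and 84.2, TLR5 at 0.941 against 7.24 and 8.23, and IFNGR1 at 52.7 against 192 and 165.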
